A study of Homo sapiens
Mus musculus and Mus musculus and Homo sapiens with 16 samples.

Results

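The genes followed here belong to the sphingosine-1-phosphate (S1P) receptor and G-alpha-13 pathway. They are S1PR1, S1PR2, S1PR4, P2RY8, GNA13, ARHGEF1, SPHK1 and SGPL1, measured in REC-1 cells, a human mantle cell lymphoma (MCL) line, with and without stroma. They were selected by symbol from the 58051 human genes counted, all 8 were found once each, and 7 of 8 had enough reads to be tested. The list was chosen by pathway with results of these libraries known, and it was selected on 1 set of measured values, the lower S1PR2 level in coculture than in Sep, so that difference is described here without a test. The study asked which transcripts change when lymphoma cells attach to stroma, and sequenced polyadenylated RNA after 24 h. There were 4 libraries each of REC-1 cells cultured alone (Sep), of the suspension fraction of REC-1 cells above MS-5 stroma (Susp) and of the fraction adhered to MS-5 (Adh), plus 4 of MS-5 cells alone. MS-5 is a mouse stromal line derived from bone marrow. The labels give no genetic change and no drug in any group, and all groups shared αMEM medium with serum. In the cocultures, 5000000 REC-1 cells were put on 500000 MS-5 cells seeded 24 h before. Adh RNA was extracted together with the RNA of the stroma, and its reads were assigned to human or mouse by computer. The study describes its sequencing comparisons as 4 independent experiments. In the titles, libraries with the same replicate number also share the number in their sample code. The labels do not say whether this marks the same experiment in each group.

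S1P is a lipid signal that is abundant in blood and lymph and scarce inside lymphoid tissue. S1PR1 couples to Gi and Rac and draws lymphocytes toward S1P, out of the tissue. S1PR2 and P2RY8 couple through G-alpha-13 (GNA13) to the exchange factor ARHGEF1 and RhoA, which restrains migration, and in germinal centres this arm keeps B cells confined. S1P itself is made by sphingosine kinases such as SPHK1 and is cleaved for good by the lyase SGPL1. In these bulk samples, fewer cells expressing a gene and less RNA per cell cannot be told apart.

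S1PR2 is the gene on which the results turn, so its promoter is shown for orientation. The gene (ENSG00000267534) lies on the minus strand of GRCh38 at chr19:10221433-10231331. The sequence holds the 250 bases before the start of the canonical transcript, at chr19:10231332-10231581, read from the genome 5′ to 3′ on the minus strand.
S1PR2 upstream: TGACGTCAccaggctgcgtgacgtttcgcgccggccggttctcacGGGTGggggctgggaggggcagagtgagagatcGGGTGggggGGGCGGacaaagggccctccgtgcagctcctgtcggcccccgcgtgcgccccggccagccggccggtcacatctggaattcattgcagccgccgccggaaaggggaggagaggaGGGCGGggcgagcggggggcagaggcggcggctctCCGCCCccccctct
Capitals mark matches, on either strand, to 3 of 5 motifs searched, which were TGACGTCA (the cyclic AMP response element), CACCC (the core bound by KLF factors), GGGCGG (the GC box bound by SP factors), TGTTTAC (FOXO) and CACGTG (E-box). The response element began 250 bases before the start, the CACCC cores 205 and 172 bases before it, and the GC boxes 163, 49 and 14 bases before it. TGACGTCA was present in 2.69% of 19970 promoter windows of protein genes (250 bases before to 50 after the start), CACCC in 63.7% and GGGCGG in 61.3%, while TGTTTAC (2.42%) and CACGTG (8.75%) had no match here. In the 250 bases before the S1PR1 start there were 2 CACCC cores, 142 and 120 bases before its start, and no match to the other motifs. Such matches describe letters, since no binding was measured in these samples.

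Human counts came to 7758979 to 13241751 per Adh library, 9325412 to 12597891 per Sep library and 15000927 to 21467832 per Susp library, so a gene at a few CPM (counts relative to the scaled library total) is known less precisely in Adh. Among markers of B cells and MCL, CD79A, MS4A1, CD79B, PAX5 and CCND1 were well expressed in every REC-1 group (group means of 469 CPM or more), SOX11 was at 17.6 to 22.9 CPM, and CD5, which MCL cells usually carry, was at 1.35 CPM or less in every library. Of 8 stromal markers, 7 were at or near 0 in the human counts and FN1 was at 3.19 to 4.50 CPM. Mouse Col1a1 had 170277 counts in the Adh libraries beside 8 human COL1A1 counts there. Among replicate pairs, Susp replicate 2 differed most from its group (chi-square per degree of freedom 52.8 to 57.4, against 6.76 to 10.1 for the other Susp pairs), and Sep replicate 1 stood 10.3 to 20.8 from the other Sep libraries, which differed by 4.19 to 5.21. Values without either library are given where they change a call.

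Per kilobase of exon, the order of the pathway genes over all groups was S1PR1 at 27.2 RPKM (CPM per kilobase), GNA13 at 26.1, ARHGEF1 at 9.78, SGPL1 at 3.99, P2RY8 at 3.37, S1PR2 at 1.47, S1PR4 at 0.277 and SPHK1 at 0.255. S1PR1 and GNA13 overlapped in every group, as did S1PR4 and SPHK1 in Sep and Adh. SGPL1 and P2RY8 overlapped in Sep and Susp, but not in Adh (SGPL1 from 3.71 RPKM upward, P2RY8 from 2.32 RPKM upward and below SGPL1). S1PR2 was below P2RY8 in all groups without overlap, and it overlapped with S1PR4 in Adh, where S1PR4 reached 0.772 RPKM in 1 library of 10 counts.

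**Figure D1:**
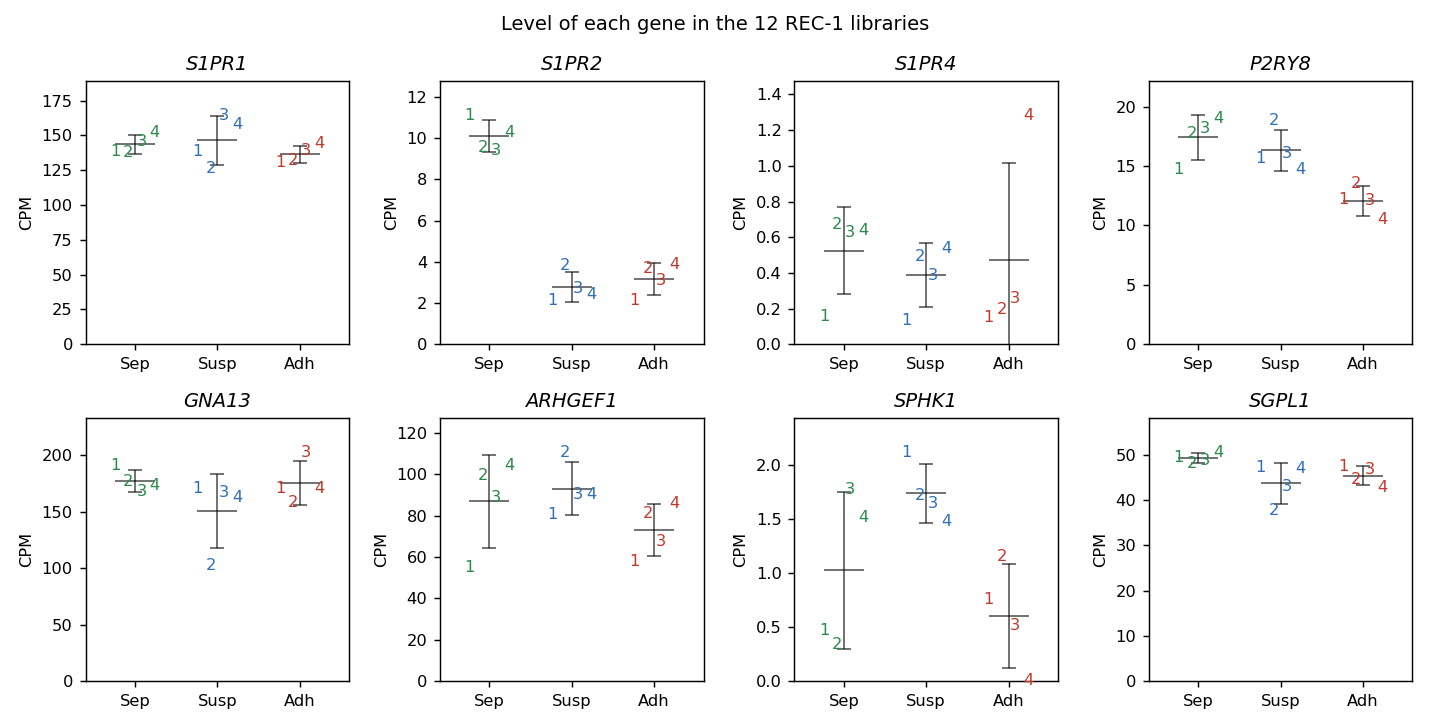
Level of each of the 8 genes in CPM (vertical axes, each from 0) in the Sep, Susp and Adh libraries of REC-1 cells, where each digit is 1 library placed at its value and named by its replicate number, and the bars give the mean and SD (n = 4). S1PR2 is at 9.42 to 11.1 CPM in Sep and at 2.10 to 3.85 CPM in all 8 coculture libraries, P2RY8 is lowest in Adh (10.5 to 13.6 CPM), and S1PR1 and SGPL1 stay close to their Sep level.

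S1PR2, the S1P receptor of the confining G-alpha-13 arm, was lower in both coculture fractions than in cells cultured alone. Its level was 11.1, 9.54, 9.42 and 10.3 CPM in Sep replicates 1 to 4, from 141, 114, 90 and 129 counts. In Susp it was 2.12, 3.81, 2.71 and 2.42 CPM, from 32, 62, 56 and 36 counts. Every Susp library was below every Sep library, with the highest Susp value in replicate 2 and the lowest in replicate 1. In Adh it was 2.10, 3.66, 3.08 and 3.85 CPM, from 28, 38, 24 and 30 counts. All Adh libraries were likewise below all Sep libraries, and Adh overlapped with Susp.

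The log2 fold change of S1PR2 was −1.86 (SE 0.22, 95% interval −2.32 to −1.40) in Susp against Sep, a level 3.63-fold lower, which placed it 4th lowest of 12861 genes tested. In Adh against Sep it was −1.69 (SE 0.23, interval −2.16 to −1.21), 3.22-fold lower and 69th lowest. These 2 differences were known when the genes were chosen and share their Sep libraries, so they are given as descriptions. The test open to S1PR2 is that between the fractions, where Adh and Susp differed by 0.17 on the log2 scale (SE 0.24, interval −0.33 to 0.68, adjusted p = 0.715, edgeR). The interval reaches past 1.5-fold on its upper side. S1PR2 shares 83 of 3643 exon bases (2.28%) with DNMT1 on the same strand, and DNMT1, the maintenance DNA methyltransferase, was at 887, 769 and 730 CPM in Sep, Susp and Adh, with no call in any comparison.

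S1PR1, the receptor for exit toward S1P, was, with GNA13, one of the most abundant members per kilobase and did not pass the test in any comparison. It was at 139, 138, 146 and 152 CPM in Sep, at 138, 126, 164 and 158 CPM in Susp and at 131, 132, 139 and 144 CPM in Adh. The groups overlapped throughout, and the spread was widest in Susp. The difference was 0.03 on the log2 scale for Susp against Sep (SE 0.09, interval −0.16 to 0.22, adjusted p = 0.881, edgeR), −0.07 for Adh against Sep (interval −0.27 to 0.12, adjusted p = 0.700) and −0.10 for Adh against Susp (interval −0.30 to 0.09, adjusted p = 0.553). These intervals lie inside 1.5-fold in both directions.

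S1PR4, a receptor of blood cells, was close to the limit of counting and was not tested. It had 2, 8, 6 and 8 counts in Sep, 2, 8, 8 and 8 in Susp and 2, 2, 2 and 10 in Adh. The groups overlapped, and replicate 1 had 2 counts in every group. S1PR3 and S1PR5, the other S1P receptors, had 0 counts in all 12 REC-1 libraries, although mouse S1pr3 had 2717 counts in the Adh libraries, of which 3 human counts would be 0.110%. If both reads of a pair were counted, the share that these 0 counts allow is higher. Human S1PR2 counts in Adh came to 120 beside 7216 of mouse S1pr2.

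**Figure D2:**
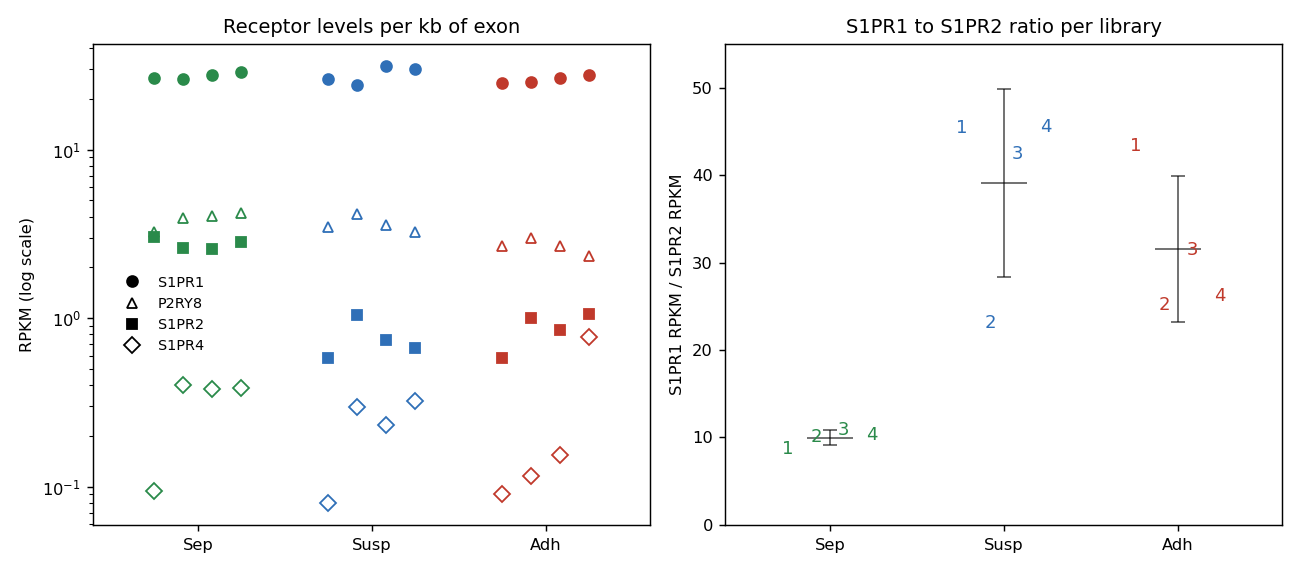
Left, levels of 4 receptors per kilobase of exon (RPKM, log axis) in each library of Sep (green), Susp (blue) and Adh (red). Right, the ratio of S1PR1 to S1PR2 in each library (linear axis from 0, digits are replicate numbers, bars are mean and SD, n = 4), which is 8.72 to 10.8 in Sep and 23.1 to 45.5 in the cocultures.

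The ratio of S1PR1 to S1PR2 transcripts followed from these levels. It leaves out P2RY8, the other receptor upstream of GNA13, which was above S1PR2 per kilobase in every group. S1PR1 exceeded S1PR2 per kilobase by 8.72, 10.1, 10.8 and 10.3 times in Sep replicates 1 to 4, with a mean of 9.97 ± 0.891 (SD, n = 4). The ratio was 45.4, 23.1, 42.4 and 45.5 in Susp (39.1 ± 10.7) and 43.3, 25.2, 31.4 and 26.1 in Adh (31.5 ± 8.33). No coculture library reached down to the Sep range, and Susp replicate 2 and Adh replicate 2 had the lowest ratio of their groups. Because S1PR2 enters the ratio, it carries no test.

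P2RY8, the other receptor upstream of GNA13, was lower in adhered cells by less than the fold limit. This gene (chrX:1462581-1537185, minus strand) lies in the region that X and Y share, where the handling of reads with 2 places in the genome matters. Its level was 14.7, 17.7, 18.2 and 19.0 CPM in Sep, 15.7, 18.8, 16.1 and 14.7 CPM in Susp and 12.2, 13.6, 12.1 and 10.5 CPM in Adh. All Adh libraries were below all Sep and all Susp libraries, while Sep and Susp overlapped. Adh against Sep gave −0.52 on the log2 scale (SE 0.13, interval −0.81 to −0.24, adjusted p = 0.0426, edgeR), a level 1.44-fold lower, which is past the p threshold and short of the 1.5-fold limit that a call needs. Without Sep replicate 1, chosen for this after seeing the data, it was called by edgeR at −0.59 (adjusted p = 0.0205), and over the 14 other settings run the adjusted p went from 0.0112 to 0.341. Against Susp the Adh level gave −0.43 (SE 0.13, adjusted p = 0.123) and Susp against Sep gave −0.09 (SE 0.13, adjusted p = 0.724), both by edgeR. Per kilobase P2RY8 was 1.40, 4.90 and 3.25 times S1PR2 in Sep, Susp and Adh, by group means.

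GNA13, which encodes G-alpha-13 itself, passed no test. It was at 191, 177, 168 and 174 CPM in Sep, at 171, 102, 167 and 162 CPM in Susp and at 170.2, 158, 203 and 171 CPM in Adh. Susp replicate 2 was the low library here, and the groups overlapped otherwise. The log2 differences were −0.23 in Susp against Sep (SE 0.13, adjusted p = 0.370, edgeR), −0.01 in Adh against Sep (SE 0.13, adjusted p = 0.967) and 0.22 in Adh against Susp (SE 0.13, adjusted p = 0.391). Without Susp replicate 2, none of these was called.

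ARHGEF1, the exchange factor that passes the signal from G-alpha-13 to RhoA, also passed no test. Its libraries were at 54.8, 99.6, 88.7 and 104 CPM in Sep, at 80.6, 111, 90.4 and 90.5 CPM in Susp and at 57.7, 81.2, 67.7 and 85.7 CPM in Adh. Replicate 1 was the lowest library in each group, and all groups overlapped. The differences were 0.10 (SE 0.17, adjusted p = 0.776) in Susp against Sep, −0.25 (SE 0.17, adjusted p = 0.453) in Adh against Sep and −0.35 (SE 0.17, interval −0.72 to 0.01, adjusted p = 0.298) in Adh against Susp, by edgeR. In Susp against Sep the sign turned to −0.06 without Sep replicate 1.

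SPHK1, the kinase that makes S1P, sat at the edge of what these depths can count, and passed the filter on low counts (0.796 CPM) through its 4 Susp libraries, with 2 of Sep and 1 of Adh above it. Since the group where it was high let it into the test, its differences are given without a p. Its counts were 6, 4, 17 and 19 in Sep, 32, 28, 34 and 22 in Susp and 10, 12, 4 and 0 in Adh. All Susp libraries (1.48 to 2.12 CPM) were above all Adh libraries (0 to 1.16 CPM), and Sep (0.335 to 1.78 CPM) overlapped with both. The 0 in Adh replicate 4 allows up to 0.385 CPM, by 3 counts, and more if both reads of a pair were counted. Adh against Susp gave −1.42 (SE 0.57), as a description only. Susp against Sep gave 0.79 (SE 0.53), which ran from 0.43 without replicate 1 to 1.18 without replicate 3. Adh against Sep gave −0.64 (SE 0.62), which ran from −1.38 without replicate 2 to −0.01 without replicate 4. On the opposite strand PRPSAP1 shares 59 of its 4416 exon bases, which the unstranded kit cannot separate.

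SGPL1, the lyase that ends S1P, passed no test. It was at 49.5, 48.0, 48.9 and 50.6 CPM in Sep, at 47.3, 37.6, 43.0 and 46.9 CPM in Susp and at 47.4, 44.6, 46.8 and 42.9 CPM in Adh. Every coculture library was below every Sep library, by a small margin. The log2 difference was −0.17 in Susp (interval −0.37 to 0.02, adjusted p = 0.346, edgeR) and −0.12 in Adh (interval −0.32 to 0.08, adjusted p = 0.525) against Sep, and 0.06 in Adh against Susp (interval −0.14 to 0.25, adjusted p = 0.775).

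**Figure D3:**
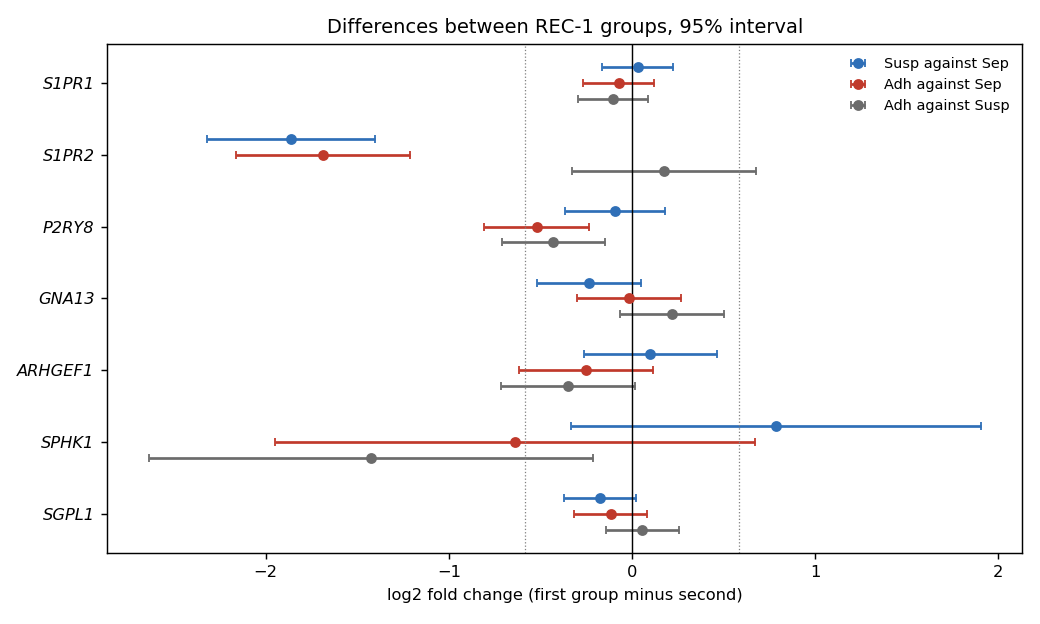
Difference between groups for the 7 genes tested, as log2 fold change (horizontal axis, first group minus second) with its 95% interval, for Susp against Sep (blue), Adh against Sep (red) and Adh against Susp (grey). Dotted lines mark 1.5-fold. The S1PR2 intervals against Sep (−2.32 to −1.40 and −2.16 to −1.21) lie wholly beyond a dotted line. The genes were chosen with that difference known, so its place there restates the choice and is no test. The SPHK1 intervals are descriptions as well, since its Susp libraries let it into the test.

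Over the 7 tested members, 1 was called lower in Susp against Sep, where 0.303% of all genes were called lower and 0.731% in either direction. Likewise, 1 was called lower in Adh against Sep, where 1.82% of all genes were called lower, 0.583% higher and 2.4% in either direction. That member was S1PR2 both times, so these counts only restate the choice. None was called in Adh against Susp, where 0.778% of all genes were called, 0.109% higher and 0.669% lower. There, P2RY8 had an unadjusted p under 0.05 by edgeR, as did 18.0% of all genes, and DESeq2 called 0 members as well. SPHK1, let into the test by its Susp libraries, is left out of this count, and its part in the other counts and the medians is description. Groups did not overlap for 2 members in Susp against Sep (11.3% of all genes), 3 in Adh against Sep (15.7%) and 2 in Adh against Susp (11.4%). These include S1PR2 in both comparisons with Sep and SPHK1 in Adh against Susp, so they are descriptions. The median log2 difference of the 7 was −0.09, −0.25 and −0.10 in these comparisons, beside −0.0059, −0.0034 and −0.0051 over all genes tested.

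The human genes most like S1PR2 over the 12 libraries were found by the root mean square difference of log2 CPM after each gene was centred on its Sep mean. ELK3, an ETS factor that represses transcription, was nearest at 0.459, followed by KCNH4, a potassium channel subunit, at 0.519. SKIL, a repressor of SMAD signals, was at 0.559, TMEM132B at 0.588 and PIFO, a gene of the primary cilium, at 0.685, where the median over 12861 genes was 1.47. PIFO passed the filter on low counts (0.796 CPM) only through Sep, at 0.837 to 1.26 CPM there. It was at 0.193 to 0.664 CPM in Susp and 0 to 0.770 CPM in Adh, so the filter itself favours this likeness. ELK3 was at 11.8 ± 2.43 CPM in Sep, 3.93 ± 0.826 in Susp and 4.02 ± 0.902 in Adh (SD, n = 4). SKIL, far more abundant, was at 133 ± 18.3, 45.9 ± 13.1 and 54.9 ± 7.18 CPM. These genes were picked for the likeness, so their changes carry no test, and likeness in level says nothing of shared control.

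Outside the 8 genes, 66 genes of the wider pathway were listed and 52 were tested. Of these, 1 was called in Susp against Sep, 2 in Adh against Sep and 1 in Adh against Susp, which are 3 different genes. Over all genes tested, 0.731%, 2.4% and 0.778% were called in these comparisons. The median log2 difference was 0.02, 0.06 and 0.02, near that of all genes.

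Among 19 genes of S1P synthesis, breakdown and transport, 14 were tested and none was called by edgeR, with 3, 3 and 5 at an unadjusted p under 0.05 in Susp against Sep, Adh against Sep and Adh against Susp. Over all genes that share was 16.7%, 20.2% and 18.0%. DEGS1, the desaturase that completes ceramide, was the highest per kilobase at 20.8 RPKM, and SPHK2, the other sphingosine kinase, was at 22.2, 24.2 and 21.1 CPM in Sep, Susp and Adh. ABCC1, an exporter that can carry S1P, was at 140, 127 and 105 CPM, and its Adh difference from Sep was −0.42 (SE 0.08, adjusted p = 0.0112, edgeR), 1.34-fold and short of a call. SPNS2, the S1P exporter of endothelium, was at 1.94, 1.09 and 1.83 CPM.

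In the relay from G-alpha-12/13 to RhoA, 13 of 14 genes were tested and none was called, with 1, 1 and 3 at an unadjusted p under 0.05, beside 16.7%, 20.2% and 18.0% of all genes. ARHGDIB, an inhibitor of small GTPases in blood cells, led the list at 266 RPKM. RHOA was at 451, 497 and 482 CPM in Sep, Susp and Adh, and GNA12, the sister of GNA13, at 75.8, 82.3 and 84.0 CPM. MYH9, the myosin that RhoA drives, was at 337, 335 and 239.6 CPM, a difference of −0.49 (SE 0.12, adjusted p = 0.0295, edgeR) in Adh against Sep that is short of 1.5-fold. Without Sep replicate 1 it was called there (−0.60, adjusted p = 0.00183, edgeR), and without replicate 2 it was called in Adh against Susp (−0.60, adjusted p = 0.0167).

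For the relay from Gi to Rac, which S1PR1 uses, 9 of 10 genes were tested. Of these, 1 was called, in Adh against Sep, where 2.4% of all genes were called. PIK3CG, the catalytic subunit of the phosphoinositide 3-kinase that G-beta-gamma turns on, was at 3.31, 2.51, 3.98 and 3.19 CPM in Sep, at 6.37, 2.95, 6.28 and 7.66 CPM in Susp and at 8.42, 5.97, 10.1 and 6.29 CPM in Adh. All Adh libraries were above all Sep libraries, and Susp overlapped with both. It rose in Adh against Sep by 1.25 on the log2 scale (SE 0.28, adjusted p = 0.0211, edgeR), and the call was lost without replicates 1, 3 or 4 in turn (adjusted p = 0.0808 to 0.151) and in thinned counts. In Susp against Sep it was called only with no filter and without Susp replicate 2 (1.05, adjusted p = 0.0253, edgeR). RAC2, the Rac of blood cells and the highest of the list at 86.3 RPKM, was at 195, 259 and 223 CPM.

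Among 10 genes that set S1PR1 level or surface display, 9 were tested. Of these, 1 was called, in Susp against Sep, where 0.731% of all genes were called. CD69, which binds S1PR1 and takes it off the surface, was at 39.8, 31.1, 31.8 and 29.1 CPM in Sep, 22.4, 20.1, 20.3 and 19.4 CPM in Susp and 28.4, 23.4, 34.7 and 29.8 CPM in Adh. Every Susp library was below every Sep and every Adh library, and Adh overlapped with Sep. It fell in Susp against Sep by 0.68 on the log2 scale (SE 0.13, adjusted p = 0.0137, edgeR), and the call was lost without replicates 1, 3 or 4 (adjusted p = 0.0640 to 0.149) and without Sep replicate 1 (−0.57, adjusted p = 0.0557). KLF2, which turns S1PR1 on, was at 6.37, 9.82 and 6.30 CPM, and FOXO1 at 43.6, 33.1 and 40.5 CPM, neither of them called. GRK2, a kinase that switches off bound receptors, led the list at 34.7 RPKM.

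Of 11 other lysophospholipid receptors, 7 were tested and 1 was called. It was called in Adh against Susp and in Adh against Sep, where 0.778% and 2.4% of all genes were called. LPAR2, a receptor for lysophosphatidic acid, was at 6.22, 9.54, 7.64 and 10.4 CPM in Sep, at 10.7, 14.9, 9.62 and 10.6 CPM in Susp and at 4.51, 4.24, 4.75 and 5.39 CPM in Adh. Every Adh library was below every Sep and Susp library. LPAR2 fell by 1.28 on the log2 scale in Adh against Susp (SE 0.20, adjusted p = 0.00355, edgeR), a call kept in all 14 other settings, and by 0.85 in Adh against Sep (SE 0.20, adjusted p = 0.0302), a call lost without replicates 2, 3 or 4 (adjusted p = 0.0728 to 0.203). P2RY10, the highest of the list at 11.4 RPKM, was at 38.6, 41.3 and 42.0 CPM. The lowest estimate was that of GPR132 in Adh against Sep, at −1.71 (SE 0.46), from 1.40 CPM in Sep and 0.428 CPM in Adh. GPR132, a receptor of lymphocytes, entered the test through Sep, with 4 Sep, 2 Susp and 0 Adh libraries above the filter. Since the group where it was high let it into the test, its difference is given without a p or a call. The estimate was −1.70 without Susp replicate 2 and −1.88 without Sep replicate 1.

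**Figure D4:**
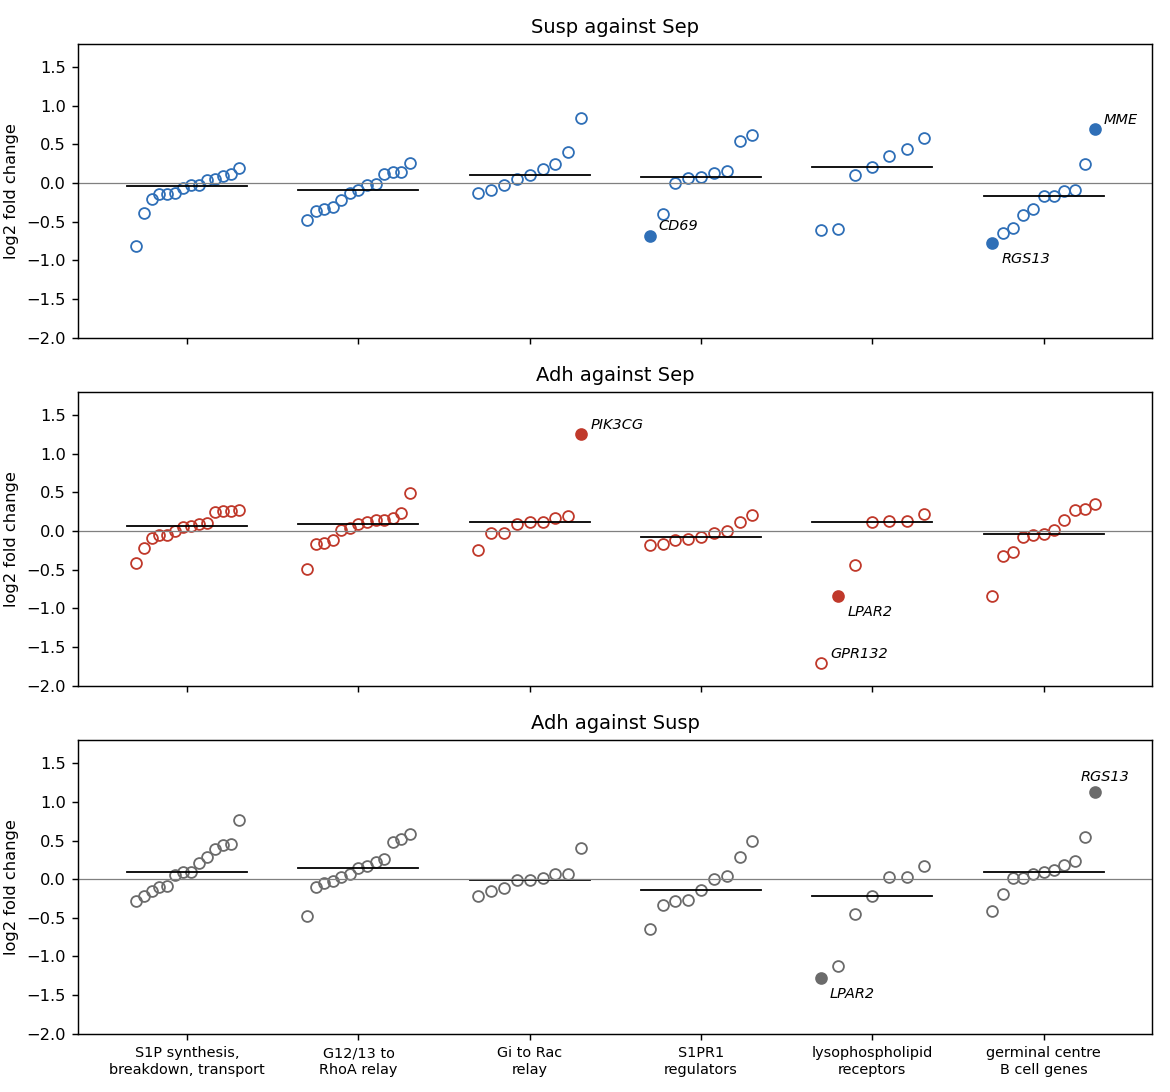
Log2 fold change (vertical axis) of each tested gene of 6 lists, in Susp against Sep (top), Adh against Sep (middle) and Adh against Susp (bottom), where filled points were called, open points were not, and black bars are list medians. CD69, RGS13 and MME are filled at the top, PIK3CG and LPAR2 in the middle, LPAR2 and RGS13 at the bottom, and most genes lie near 0.

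The confining arm is best known in germinal centre B cells, and 14 genes of that stage were set beside it. REC-1 had low levels of some of them, with BCL6 at 5.40, 4.23 and 4.45 CPM in Sep, Susp and Adh and GCSAM, a germinal centre brake on motility counted in the RhoA list, under 0.3 CPM on average. Of the 14, 11 were tested, with 2 called in Susp against Sep, 0 in Adh against Sep and 1 in Adh against Susp. Over all genes, 0.731%, 2.4% and 0.778% were called in these comparisons. By edgeR, 5, 4 and 4 had an unadjusted p under 0.05 in the same order, beside 16.7%, 20.2% and 18.0% of all genes. RGS13, which damps Gi signals, was at 42.8, 35.5, 41.2 and 39.6 CPM in Sep, 25.8, 22.4, 21.5 and 23.4 CPM in Susp and 52.7, 44.8, 51.0 and 54.9 CPM in Adh. No groups overlapped. It fell in Susp against Sep by 0.77 (SE 0.10) and rose in Adh against Susp by 1.13 (SE 0.10), the first of which lost its call without replicate 3 (adjusted p = 0.0633, edgeR).

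MME, the peptidase CD10, was at 12.8 to 18.2 CPM in Sep, 19.1 to 29.5 CPM in Susp and 16.9 to 20.3 CPM in Adh. Susp did not overlap with Sep, and Adh overlapped with both. It rose in Susp against Sep by 0.70 (SE 0.15, adjusted p = 0.0280, edgeR), a call lost without replicates 1, 3 or 4, in thinned counts and in a model of both groups alone. POU2AF1, a B cell coactivator, was the highest of the list at 58.5 RPKM.

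The same pathway was read in the mouse counts of the stroma, where the Adh libraries (29495404 to 34615602 mouse counts) were set against MS-5 cells alone (10097555 to 17397651). MS-5 had Col1a1, Col1a2, Col3a1, Pdgfrb, Fn1 and Cxcl12 at a mean of 262 CPM or more, while Dcn and Lum, which many fibroblasts express, had 0 counts in all 8 libraries. Of 29 pathway genes, 23 were tested and none was called, where 0.205% of all mouse genes were (0.041% higher and 0.164% lower). Groups did not overlap for 3 genes, S1pr1, Ggt5 and Rhoc, against 6.74% of all mouse genes. By an unadjusted p under 0.05 there were 6 in edgeR, beside 11.3% of all mouse genes, and DESeq2 called 0. The median log2 difference was −0.01, beside −0.0017 over all mouse genes.

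Stromal S1pr1 was at 26.9, 29.3, 28.2 and 28.5 CPM in MS-5 alone and at 36.2, 32.5, 35.4 and 38.6 CPM in coculture. All coculture libraries were higher, by 0.34 on the log2 scale (SE 0.08, adjusted p = 0.0528, edgeR). Stromal S1pr2, the orthologue of the gene that was lower in the lymphoma cells, was at 53.6, 54.5, 56.5 and 52.6 CPM alone and at 55.5, 54.9, 51.2 and 61.7 CPM in coculture. These overlapped, and the difference was 0.04 (SE 0.07, interval −0.11 to 0.19, adjusted p = 0.889, edgeR). S1pr3, a receptor of mesenchymal cells, was at 19.0 ± 2.41 and 21.0 ± 2.87 CPM, and S1pr4 had 0 counts in all 8 libraries.

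Among stromal enzymes, Sphk1 was at 7.75 ± 1.84 CPM alone and 5.61 ± 1.16 CPM in coculture, and Sgpl1 at 331 ± 14.1 and 341 ± 14.8 CPM. Plpp2, a lipid phosphatase that can remove the phosphate of S1P, was the highest of the list at 142 RPKM. Ggt5, the enzyme that degrades the P2RY8 ligand S-geranylgeranyl-glutathione, was at 1.81, 0.597, 1.97 and 1.41 CPM alone and at 4.67, 2.96, 2.19 and 4.45 CPM in coculture. All coculture libraries were above those of MS-5 alone, by 1.24 on the log2 scale (SE 0.32, interval 0.56 to 1.92, adjusted p = 0.103, edgeR), from 6 to 158 counts a library. With a replicate block (1.22, adjusted p = 0.0141) and with no filter on low counts it was called by edgeR.

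**Figure D5:**
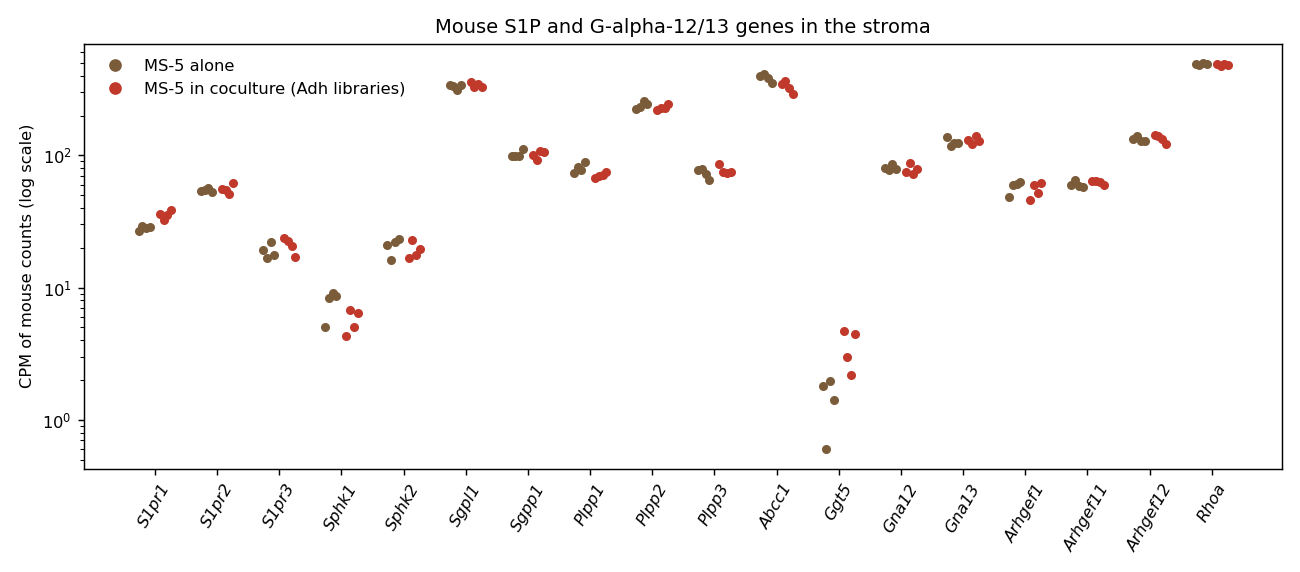
Level of 18 mouse genes of the pathway (CPM of mouse counts, log axis) in the 4 libraries of MS-5 alone (brown) and the 4 of MS-5 in coculture (red), where each point is 1 library. S1pr1 (26.9 to 29.3 against 32.5 to 38.6 CPM) and Ggt5 (0.597 to 1.97 against 2.19 to 4.67 CPM) do not overlap between the groups.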

How the data were processed

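Polyadenylated RNA was sequenced unstranded from 16 libraries. Per the labels and the study's methods, the authors split paired reads by species with Xenome, aligned them with STAR 2.5.1b to GRCh38 or GRCm38, kept unique alignments, and deposited raw read counts per gene from featureCounts (Subread 1.5.2). Columns of samples outside the labels used here (20) were left out. Low counts were mostly even, so both mates of a pair may have been counted. No 2 of 30 replicate pairs were alike within sampling noise.

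Counts were tested in R 4.3.3 with edgeR 4.0.16 (filterByExpr, TMM, quasi-likelihood), with 1 model over 12 REC-1 libraries (12861 genes) and 1 over 8 mouse libraries (12201 genes). Calls needed both a change of 1.5-fold or more and an adjusted p (Benjamini-Hochberg) no higher than 0.05. CPM used TMM-scaled totals, and RPKM divided them by merged exon length in GENCODE annotation. That annotation is a later release than the Ensembl annotation on which the study made the counts. The lengths may therefore differ from the exons counted, which bears on comparisons between genes per kilobase. On simulated data for Susp against Sep (12771 genes), 192 of 200 genes changed 2-fold were called, with 7 false calls. The simulation gave every gene the same spread, held no deviating library and changed only genes above a minimum level. It checks that the code runs rightly and does not give the power in the real libraries.

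Members and lists were chosen with earlier results of these data known. Named by rule were all members, called listed genes, the highest gene per length of each list and the 5 genes most like S1PR2. Other genes were named after their values were seen. DESeq2 1.42.0, other filters and scalings, a replicate block and left-out libraries were the alternatives. No protein sequence was used here. A further B cell marker is not reported here.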

Additional observations from a re-analysis of the deposited data

Results flagged for a closer look

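In 6 of 96 groups of 4 libraries examined (6.25%), the highest or lowest library stood apart from the other 3 by more than the 95% critical value of Dixon's test. Chance gives about 1 group in 20. S1PR4 was at 0.157 CPM in Sep replicate 1, from 2 counts, against 0.628 to 0.669 CPM in the others. S1PR4 was also at 1.28 CPM in Adh replicate 4, from 10 counts, against 0.150 to 0.257 CPM. GNA13 was at 102 CPM in Susp replicate 2, against 162 to 171 CPM. P2RY10, a receptor for lysophosphatidylserine, was at 29.3 CPM in that same library, against 44.7 to 45.6 CPM. DEGS1 was at 49.9 CPM in Susp replicate 3, against 55.2 to 55.9 CPM. Mouse Sphk1 was at 5.02 CPM in MS-5 replicate 1, against 8.36 to 9.03 CPM.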

How the results depend on the processing

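The S1PR2 difference from Sep, which carries no test, ran from −2.09 to −1.72 (log2) in Susp and from −1.84 to −1.46 in Adh over 14 other settings, and no member was called in Adh against Susp in any setting. The members called in Adh against Sep rose from 1 to 2 with no fold minimum and without Sep replicate 1 (P2RY8, −0.59), and stood at 1 to 2 with libraries left out. Near 0, signs turned. ARHGEF1 in Susp against Sep was −0.017 without replicate 1, −0.0028 without Susp replicate 2 and −0.063 without Sep replicate 1, in a range of −0.063 to 0.22. S1PR1 there was −0.020 without replicate 3 (range −0.020 to 0.086). GNA13 in Adh against Sep was 0.037 without replicate 1, 0.038 without replicate 2 and 0.027 without Sep replicate 1 (range −0.12 to 0.038).

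Among other pathway genes, Susp against Sep gave 1 call, 2 with the replicate block (LPAR5 added), 3 with no filter (LPAR5 and PIK3CG added) and 0 to 2 with libraries left out (0 without Sep replicate 1, 2 without Susp replicate 2, PIK3CG added). Adh against Sep gave 2, 1 in thinned counts, 4 with no fold minimum and 0 to 4 with libraries left out. The 4 came without Sep replicate 1, with MYH9 and GPR132 added. GPR132 was let into the test by its Sep libraries, so its part in that count is no support. Adh against Susp gave 1, and 1 to 2 with libraries left out (MYH9 added). Stromal pathway genes gave 0, and 1 (Ggt5) with the replicate block or no filter.

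Over all human genes, Susp against Sep gave 94 calls, 175 with the replicate block, 173 by DESeq2, 217 with no filter and 24 to 81 with a replicate left out (24 without replicate 3). Adh against Sep gave 309, 527 by DESeq2, 503 with no filter and 92 to 519 with libraries left out (519 without Susp replicate 2, 490 without Sep replicate 1). Adh against Susp gave 100, 281 with the block, 282 by DESeq2, 341 with no filter and 25 to 165 with libraries left out (165 without Sep replicate 1). Mouse genes gave 25, 45 with the block or no filter, 16 in thinned counts, 94 with no fold minimum and 7 to 27 with a replicate left out. The cause of these moves was not tested.

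Same-numbered libraries deviated together (r over 0.1) for 1 of 4 pairs in Susp against Sep, 3 in Adh against Sep, 1 in Adh against Susp and 3 in the mouse comparison. Replicate 1 had r of 0.414, 0.443, 0.442 and 0.401 in these comparisons. No comparison had all 4 pairs over 0.1 and the labels name no shared batch. By the rule used here, the numbers were therefore not taken as pairs in the main model. Susp and Adh are fractions of cocultures, so same-numbered libraries may come from a shared culture. The main model does not use such pairing, and only the replicate block allows for it. A library correlated best with its own number for 1, 3, 2 and 3 of 4. Halving the counts, for mates counted singly, and leaving out Sep replicate 1 were chosen after seeing the data. SPHK1 and S1PR4 were limited by depth, and SPHK1 gave no value with at least 10 counts required in every library.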
